A study of Drosophila melanogaster with 384 samples.

Results

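Mitochondrial ribosomal protein genes were followed through the promoter counts of a single-cell ATAC-seq table from the developing fly eye. Members were the 73 protein-coding genes of the release 6 annotation of Drosophila melanogaster whose symbol starts with mRpL (47 genes) or mRpS (26 genes), out of 13986 protein-coding genes. The rows of the count table are the cisTarget regions of the paper, which divide the non-coding genome by its conservation between species. They are not peaks of accessibility. A promoter row was a row that overlapped the 500 bp on either side of an annotated transcription start site (TSS), and whole rows were counted. Of the 73 genes, 71 had at least 1 such row, and mRpL19 and mRpL47 had none listed. These 71 genes held 96 promoter rows, out of 16372 promoter rows of protein-coding genes and 68775 rows in the whole table. The rule uses symbols and positions and no measured value.

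Mitochondria carry their own ribosomes, which translate the few proteins encoded by the mitochondrial genome, all of them subunits of the respiratory chain and the ATP synthase. Every protein of the mitochondrial ribosome is encoded in the nucleus, made in the cytosol and imported, so these genes must be read in the nucleus of each cell that keeps its mitochondria. In ATAC-seq, the Tn5 transposase inserts adapters into DNA that is not covered by nucleosomes, and active promoters, of housekeeping genes included, are among the most accessible parts of the fly genome. Many fly housekeeping genes lie head to head with a neighbour on the opposite strand, so that a single open region holds the starts of both.

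The material was eye-antennal discs (the larval tissue that gives rise to eye, antenna and head cuticle) of wandering larvae of the third instar raised at 25°C. They carried the F2-B(sens)-GFP reporter (genotype w;F2-B/CyO), in which an intronic enhancer of senseless (sens) targeted by Atonal drives GFP, so the sort follows the activity of that enhancer and not the expression of sens itself. A total of 200 discs were pooled and dissociated with trypsin, and cells negative for propidium iodide and positive for GFP were sorted and loaded on a Fluidigm C1, which isolates cells in microfluidic chambers. All 384 labelled cells belong to this 1 group, with no animal, dissection or chip named and no control group, and the count table holds 72 of them. The group was therefore treated as 1 sample, no test between conditions was possible, and intervals below cover counting error only.

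The 72 cells held 197425 counts in the table, from 908 to 5892 per cell with a median of 2694.5, and 2 cells were under 1000. In windows of 5 kb upstream plus introns, the neuronal and furrow markers gl, sens, dap and neur stood between the 89.2 and the 99.4 percentile of genes in counts per kb, while ato stood at the 47.6 percentile. Markers of glia (repo), of antenna (Dll, ss) and of muscle precursors (twi) stood between the 31.9 and the 45.5 percentile, the hemocyte marker eater at the 13.9 percentile and Hml, another hemocyte marker, at the 80.3 percentile. No defining marker of another cell type was at 0 counts, and the part of such cells in the member counts was not tested.

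Head-to-head neighbours are shown first, because the results turn on them. The sequences are the bases strictly between the TSS of a member and that of its neighbour, outside every annotated exon, in the release 6 genome (dm6). They are written 5′ to 3′ on the strand of the member, so that its own TSS follows the last base. Capitals mark 3 words searched on both strands: the DRE (TATCGATA), which is bound by the factor DREF, the Motif 1 core (GTCACACT), known from promoters bound by M1BP, and the hexamer CAGCTG. The first, for mRpL2 and the forkhead gene FoxK, lies in the member row with most counts, and those of mRpL11 and mRpL48 in rows with high counts per kb. The intervals of mRpS11 and mRpL23 belong to genes without any count, and those of mRpL32 and mRpL39 were picked after their letters were read, because they hold DRE words.
mRpL2 and FoxK, chr3L:11120784-11120846, + strand: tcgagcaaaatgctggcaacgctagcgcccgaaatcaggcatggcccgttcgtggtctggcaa
mRpL11 and HtrA2, chr3R:14511713-14511837, + strand: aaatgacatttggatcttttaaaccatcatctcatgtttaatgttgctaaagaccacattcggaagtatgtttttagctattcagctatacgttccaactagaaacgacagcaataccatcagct
mRpL48 and CG17660, chr2L:1710422-1710461, + strand: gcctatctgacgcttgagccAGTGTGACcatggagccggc
mRpS11 and Ns1, chr3R:17072676-17072731, + strand: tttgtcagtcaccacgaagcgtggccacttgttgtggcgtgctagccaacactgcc
mRpL23 and CG9004, chr3L:2373705-2373727, - strand: gtttaaaacaagtgttggacaac
mRpL32 and qless, chr3R:31252609-31252871, + strand: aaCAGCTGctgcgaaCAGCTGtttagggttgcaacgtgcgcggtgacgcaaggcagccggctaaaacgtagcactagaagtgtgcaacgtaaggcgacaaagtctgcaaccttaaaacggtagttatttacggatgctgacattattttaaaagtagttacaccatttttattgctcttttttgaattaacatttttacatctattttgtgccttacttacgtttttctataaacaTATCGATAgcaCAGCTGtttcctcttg
mRpL39 and Prosbeta2, chr3L:14999667-14999950, - strand: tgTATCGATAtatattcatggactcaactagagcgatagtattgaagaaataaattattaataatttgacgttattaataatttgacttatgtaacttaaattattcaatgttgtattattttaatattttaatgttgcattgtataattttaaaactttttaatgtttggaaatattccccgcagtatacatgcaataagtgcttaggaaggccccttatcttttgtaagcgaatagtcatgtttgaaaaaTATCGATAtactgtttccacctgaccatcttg
Between mRpL2 and FoxK none of the 3 words occurs, and between mRpL48 and CG17660 the Motif 1 core occurs on the opposite strand. The mRpL39 interval holds 1 DRE near the member and 1 near Prosbeta2, which encodes a proteasome subunit. The mRpL32 interval holds 1 DRE and 3 CAGCTG words.

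Of the 73 members, 58 (79.5%, Wilson 95% interval 68.8 to 87.1) had a protein-coding neighbour that started head to head within 1000 bp, beside 4998 of 13913 other genes (35.9%, 35.1 to 36.7). The distance between the starts ran from 20 bp, between mRpL18 and Taz (the cardiolipin remodelling enzyme tafazzin), to 793 bp, between mRpL4 and CG4440. Its median was 283 bp in members and 298 bp in other head-to-head genes, and 18 members started within 100 bp of their neighbour. Members were also short genes, with a median length of 909 bp beside 2174 bp, and 67 of them (91.8%) had a single annotated TSS beside 73.5% of the other genes. Among the neighbours, ATPsynD (a subunit of the ATP synthase), Mitofilin (a shaper of the mitochondrial cristae), HtrA2 (a mitochondrial protease) and Taz also act in mitochondria. They were singled out after the list of neighbours was read, and ATPsynD was the only member of the oxidative phosphorylation list in such a pair.

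Summed over the 72 cells, the 96 member rows held 447 counts on 63.46 kb, or 7.04 counts per kb (95% Poisson interval 6.41 to 7.73). All other promoter rows held 74167 counts, or 4.80 counts per kb (4.77 to 4.84). Member promoters were thus 1.47 times as dense in counts (exact conditional interval 1.33 to 1.61), and the median row had 6.27 against 2.96 counts per kb. Members made up 0.586% of promoter rows, 0.409% of their bases and 0.599% of their counts. Row length moved with this result: member rows had a median length of 537.5 bp and other promoter rows of 838.0 bp. These lengths come from the division of the genome and not from the extent of open chromatin. Counts per kb therefore depend on where the row ends were drawn. Per row, members had 4.66 and others 4.56 counts on average, a ratio of 1.02 (0.929 to 1.12).

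By a rule of at least 2 times the median counts per kb of all promoter rows, that is 5.95 counts per kb, 49 of 96 member rows passed (51.0%, 41.2 to 60.8), where the background over all promoter rows was 31.9%. By a rule of a count in at least 10 cells, 10 of 96 passed (10.4%, 5.76 to 18.1), beside a background of 10.7%. At least 1 count was found in 84 of 96 member rows (87.5%, 79.4 to 92.7), beside a background of 85.6%. Only the rule per kb set the members apart from the background, and the rules on cells and on detection, which do not divide by length, did not. By gene, the median was 6.73 counts per kb over the 71 members with a row and 3.66 over 11655 other genes, and 56 of the 71 members (78.9%) stood above the median of all genes.

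**Figure D1:**
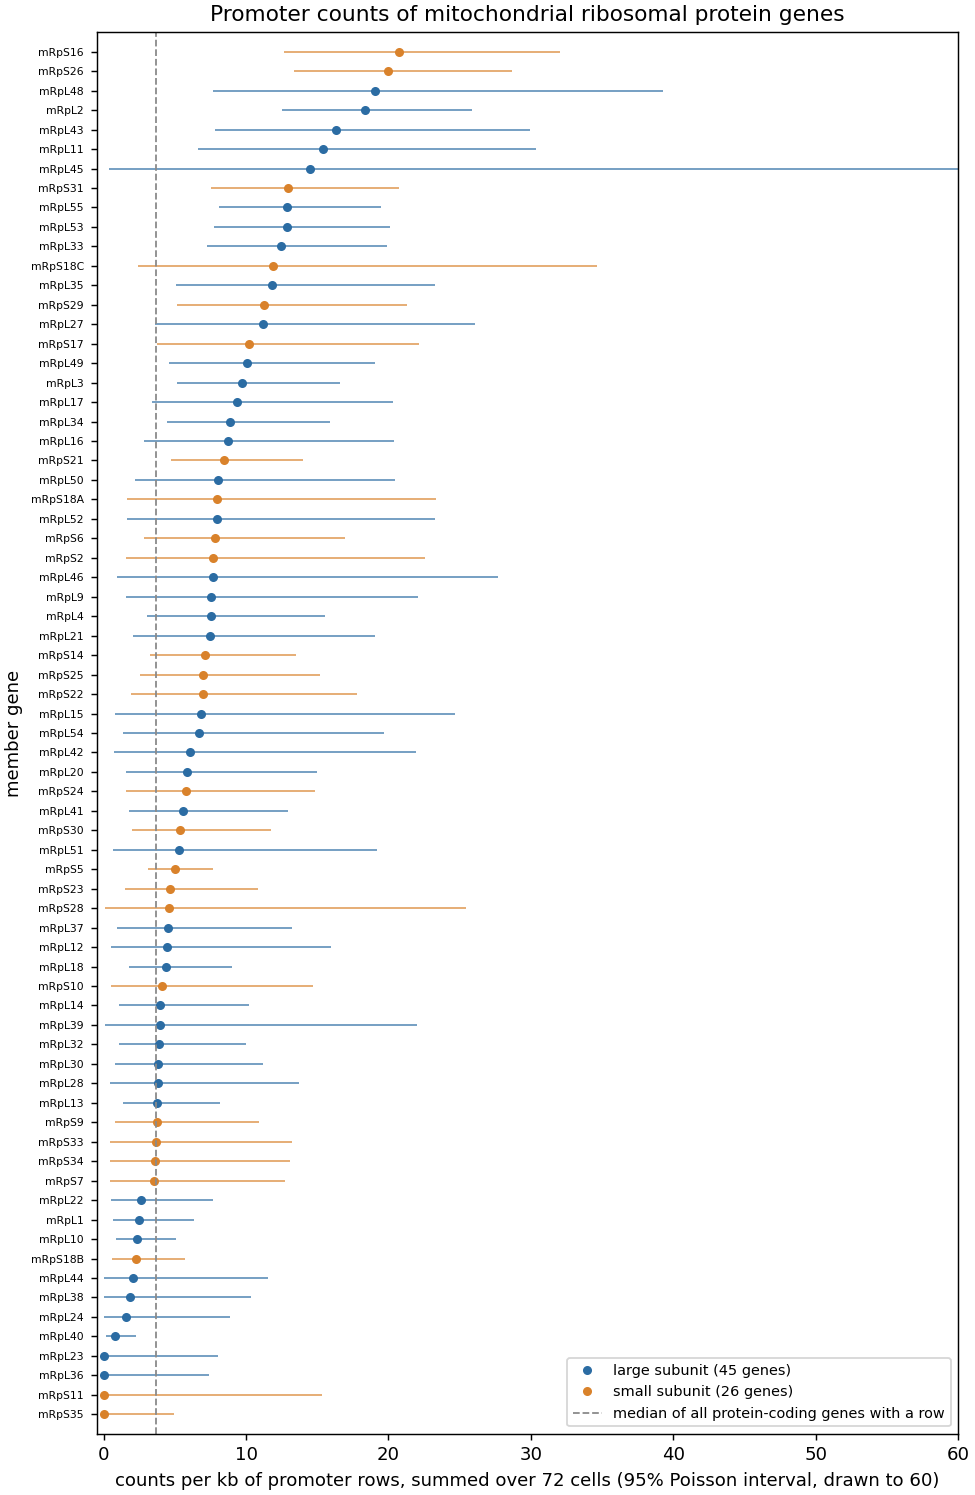
Counts per kb of the promoter rows of each of the 71 member genes with a row (x axis, summed over 72 cells), with exact 95% Poisson intervals drawn up to 60 (for genes without a count, the limit of 3 counts), large subunit genes in blue and small subunit genes in orange. The dashed line is the median of all protein-coding genes with a row, at 3.68 counts per kb, and 56 members lie to its right; the intervals of most neighbours in the order overlap.

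Counts per kb went with the class of the row. Rows were called shared where they also lay within 500 bp of the TSS of a head-to-head protein-coding neighbour, single where no other protein-coding gene started nearby, and other where the neighbour lay in another orientation. The 68 shared member rows held 363 counts, or 8.30 counts per kb (7.47 to 9.20), the 23 single member rows held 52 counts, or 3.26 counts per kb (2.44 to 4.28), and the 5 rows of class other held 32 counts, or 8.45 counts per kb. Shared over single gave a ratio of 2.55 (1.90 to 3.47) in members and 1.74 (1.71 to 1.77) in all other promoter rows. Members did not exceed other genes in either of the 2 larger classes. Shared member rows had 1.09 times the counts per kb of the 2728 other shared rows (0.976 to 1.21), and single member rows 0.740 times those of the 12859 other single rows (0.553 to 0.971). In class other, the 5 member rows stood higher, at 8.45 (5.78 to 11.9) beside 4.07 (3.92 to 4.23) in 689 rows of other genes. Of the 32 member counts in that class, 16 lay in a row at mRpL55. If each member row had held the counts per kb of other rows of its class, 419.8 counts would have been found, and the 447 observed were 1.07 times as many (0.968 to 1.17). With rows matched on class and on length bin the ratio was 1.06 (0.961 to 1.16). Matched on length bin alone it stayed at 1.42 (1.29 to 1.56).

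**Figure D2:**
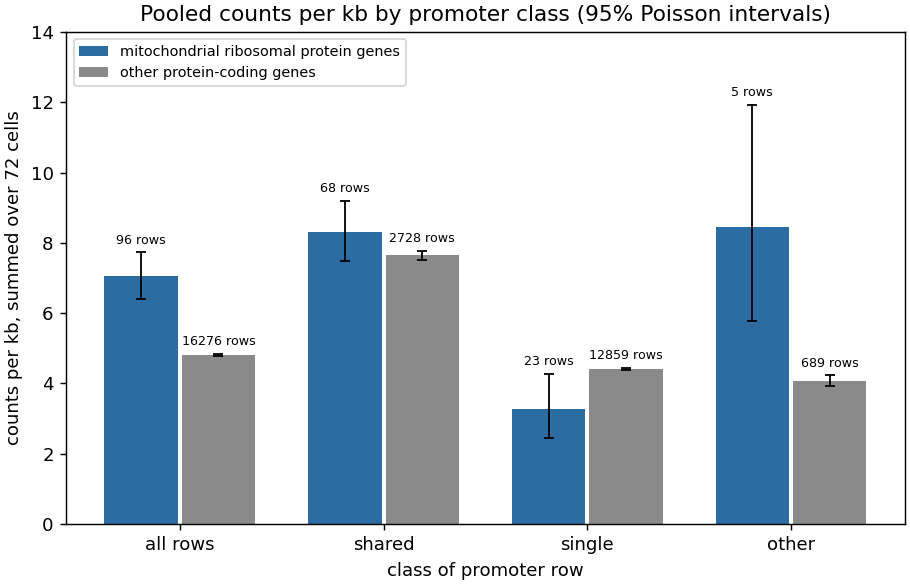
Pooled counts per kb (y axis, summed over 72 cells) of promoter rows by class, for mitochondrial ribosomal protein genes in blue and other protein-coding genes in grey, with exact 95% Poisson intervals and the number of rows above each bar. Over all rows members stand at 7.04 and others at 4.80 counts per kb, while the shared rows stand at 8.30 and 7.64.

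The single class of members needs its composition beside it. Of its 23 rows, 11 held a TSS and 10 were shorter than 250 bp, most of these being fragments inside members such as mRpL20, mRpL43 or mRpS6 that share their main promoter row with a neighbour. Another 3 single rows longer than 2000 bp, at mRpL10, mRpL40 and mRpS5, held 10 counts on 8.52 kb, out of 15.95 kb in the class. With rows of 200 to 2000 bp alone, shared over single was 1.60 (1.13 to 2.34) in members and 1.60 (1.57 to 1.63) in other promoter rows. The larger ratio over rows of any length thus rested on rows outside these limits.

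**Figure D3:**
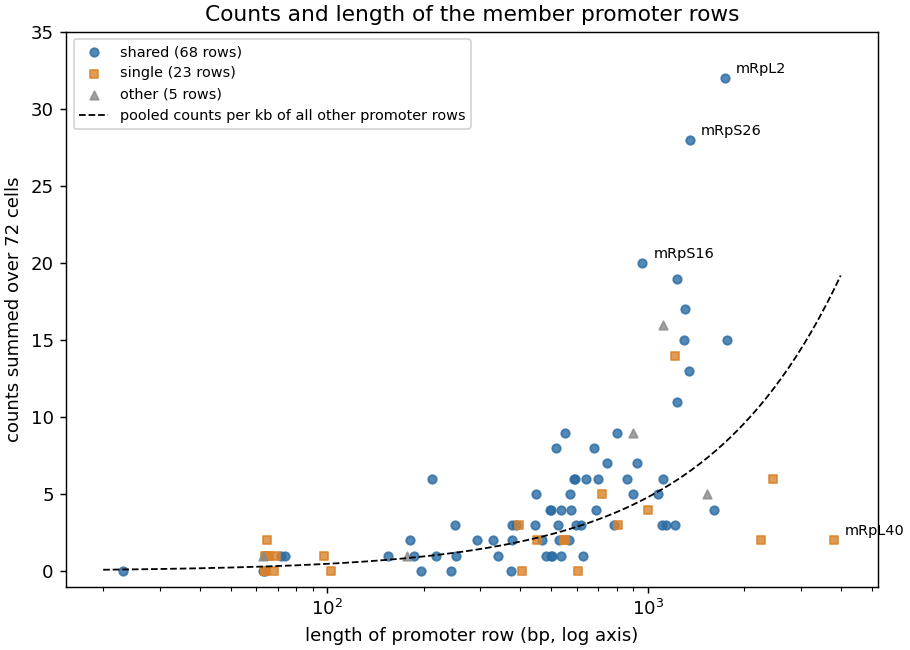
Counts summed over 72 cells (y axis) against the length of the row in bp (x axis, log scale) for the 96 member rows, by class (circles shared, squares single, triangles other). The dashed curve is the pooled 4.80 counts per kb of all other promoter rows; mRpL2 (32 counts) and mRpS26 (28 counts) lie far above it, and the 3804 bp row of mRpL40 (2 counts) far below.

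The 10 shared promoters with most counts held conserved and mitochondrion-specific ribosomal proteins alike. The mRpL2 row (chr3L:11119197-11120941), shared with FoxK at 64 bp between the starts, held 32 counts in 23 cells, with 1 count in 16 cells, 2 in 5 and 3 or more in 2. It spans exons of both genes and the bases between them. The protein mRpL2 is the homologue of bacterial L2, next to the peptidyl transferase centre. The row of mRpS26, a protein found only in mitochondrial ribosomes, and CG13698 (chr3L:18105308-18106662) held 28 counts in 20 cells, with a largest entry of 4. The row of mRpS16 and cg (combgap, a zinc finger factor) held 20 counts on 963 bp in 18 cells, and 16 of these cells had 1 count. These 3 rows stood at 18.3, 20.7 and 20.8 counts per kb, and their Poisson intervals (12.5 to 25.9, 13.7 to 29.9 and 12.7 to 32.1) overlapped.

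The next rows held fewer counts. The row of mRpL53, AGO1 (the Argonaute protein of the microRNA pathway) and CG33155 had 19 counts in 15 cells, that of mRpS31 and hzg 17 in 14 cells, that of mRpL33 and norpA (the phospholipase C of phototransduction) 15 in 10 cells and that of mRpS21 and Droj2 (a DnaJ-type chaperone) 15 in 12 cells. The row of mRpL3, homologue of bacterial L3, and Graf had 13 counts in 12 cells, that of mRpL34 and Dg (dystroglycan) 11 in 9 cells, and that of mRpL43 and CG30183 9 in 9 cells, tied in counts with the row of mRpS29 and rad50 (9 in 8 cells). No count at a shared row can be given to either gene alone. For AGO1 and FoxK, rows at further starts of the neighbour added counts that no member shares, to 79 counts in all for AGO1 and 48 for FoxK.

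Per kb, the 10 leading genes were mRpS16 (20.8), mRpS26 (20.0), mRpL48 (19.1), mRpL2 (18.3), mRpL43 (16.3), mRpL11 (15.4), mRpL45 (14.5), mRpS31 (13.0), mRpL55 (12.9) and mRpL53 (12.9), all in counts per kb summed over cells. The value of mRpL45, whose mammalian homologue sits at the exit of the nascent chain near the inner membrane, was 1 count on a row of 69 bp that holds no TSS, and its interval ran from 0.367 to 80.7. That of mRpL48 was 7 counts on 367 bp in 7 cells, with 6 of them in the row of 212 bp that holds the interval printed above. The gene mRpL11, encoding the homologue of the bacterial L11 of the GTPase-associated centre, had 8 counts on 519 bp in 6 cells. At mRpL55, 22 counts fell on 2 rows: 6 in the row shared with ATPsynD and 16 in a row of class other near a start of cdi, in which mRpL55 has an exon but no TSS.

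At the low end, mRpL23, mRpL36, mRpS11 and mRpS35 had rows of 196 to 604 bp without a count in any of the 72 cells. A count of 0 allows up to 3 counts, which is 4.97 counts per kb at mRpS35, 7.41 at mRpL36, 8.0 at mRpL23 and 15.3 at mRpS11, so at this depth only mRpS35 of these 4 could be placed below the median member. The protein mRpL23 is the homologue of the bacterial exit-tunnel protein L23, and its printed interval of 23 bp is among the shortest. Above them came mRpL40 with 3 counts on 3870 bp (0.775 counts per kb, 0.160 to 2.27), mRpL24 with 1 count on 630 bp, mRpL38 with 1 on 538 bp and mRpL44 with 1 on 482 bp. The protein mRpL44, which has a fold of the RNase III family, had a promoter at 2.08 counts per kb. Then followed mRpS18B with 4 counts on 1786 bp and mRpL10, a protein of the ribosomal stalk, with 6 on 2563 bp. Of the 6 genes with a count among these 10, mRpL40, mRpL10 and mRpS18B had an upper Poisson bound below the median of 6.73 for members. These bounds were 2.27, 5.10 and 5.73 counts per kb. The longest row of each of these 3 genes lay mostly outside the 500 bp window. The 3804 bp row of mRpL40 overlaps an exon of pros, and the 2460 bp row of mRpL10 an exon of spen. Their low values thus include sequence away from the start, and the part of it was not tested.

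Other members with a known role fell in between. The gene mRpL12, whose product is the partner of mRpL10 in the stalk, had 2 counts on 453 bp at a single promoter. The gene mRpS5, encoding a homologue of a bacterial protein at the entry of the messenger RNA, had 21 counts over 3 rows of 4193 bp in 19 cells, of which 14 lay in a single row upstream of its gene without an exon. The promoters of mRpS2, with 3 counts on 389 bp, and mRpS29, whose mammalian homologue DAP3 binds GTP, with 9 counts on 801 bp, stood at 7.71 and 11.2 counts per kb. The 3 genes of proteins related to bacterial S18 stood at 11.9 counts per kb for mRpS18C (3 counts), 7.98 for mRpS18A (3 counts) and 2.24 for mRpS18B (4 counts). With so few counts all 3 intervals overlapped, at 2.445 to 34.7, 1.645 to 23.3 and 0.61 to 5.73 in this order, and no difference was shown.

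Large subunit genes (60 rows) stood at 6.75 and small subunit genes (36 rows) at 7.52 counts per kb, a ratio of 0.899 (0.741 to 1.09) whose interval includes 1. This depended on the window around the TSS, since the ratio was 0.783 (0.638 to 0.964) with 100 bp and 0.725 (0.612 to 0.861) with 1000 bp, and with both windows large subunit genes were lower beyond counting error. The genes mRpS30, with 6 counts on 1113 bp, and mRpS18A are named for the small subunit, although the homologous proteins sit in the large subunit of mammalian mitochondrial ribosomes. By chromosome arm, members stood at 4.44 counts per kb on 2L (12 genes), 5.56 on 3R (21 genes), 6.98 on X (11 genes), 8.78 on 3L (17 genes) and 10.0 on 2R (12 genes). Other promoter rows ranged over the same arms from 4.54 to 5.11 counts per kb. The rows of mRpS16 and mRpL53 on 2R, and those of mRpL2 and mRpS26 on 3L, held 39 of 96 and 61 of 132 of the counts of their arms.

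The mitochondrial ribosomal proteins with other symbols were tko, the homologue of bacterial S12 in the decoding centre, and bonsai, the homologue of S15. They stood apart from each other, with 6 counts on 2179 bp (2.75 counts per kb) for tko at a single promoter and 4 counts on 264 bp (15.2 counts per kb) for bonsai, which starts 43 bp from Cdk9. Related groups were measured the same way. The list of mitochondrial translation and transcription also holds the aminoacyl-tRNA synthetases of mitochondria, whose symbols end in RS-m. The 35 promoter rows of this list stood at 5.05 counts per kb (members were 1.39 times as dense, 1.11 to 1.77). Of these rows 17 (48.57%) passed the rule of 2 times the median, beside 51.0% of member rows and a background of 31.9%. The 128 rows of nuclear oxidative phosphorylation genes stood at 4.10 (1.72 times, 1.501 to 1.967), with 43 rows (33.59%) past the rule. The 152 rows of cytosolic ribosomal protein genes stood at 6.29 (1.12 times, 0.993 to 1.26), with 76 rows past the rule, and the 55 rows of proteasome genes at 5.42 (1.30 times, 1.10 to 1.54), with 19. In counts per kb, members and cytosolic ribosomal proteins did not differ beyond counting error, while members stood above the other 3 lists. The lists were not matched to members on class or length of row, so these ratios also carry any difference in the mix of rows. They were also taken by symbol, so paralogs such as ND-B14.5AL, Rpt3R and RpL24-like are among them. The part of such paralogs in the ratios was not tested. Counted per row, members stood at 0.983 times the cytosolic ribosomal proteins (0.872 to 1.11) and 1.27 times the proteasome genes (1.08 to 1.51). They stood at 1.40 times the oxidative phosphorylation genes (1.23 to 1.61) and 1.85 times the translation and transcription list (1.47 to 2.36).

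Every one of the 72 cells had at least 1 count in a member row, from 1 to 20 with a median of 6, spread over 1 to 16 rows with a median of 5. The share of a cell's counts in member rows ran from 0.0439% to 0.565% with a median of 0.223%. Of the 6912 entries (96 rows in 72 cells), 388 were above 0, and of these 336 were 1, 46 were 2 and 6 were 3 or more. Entries of 1 made up 86.6% of those above 0 in members and 83.7% in other promoter rows. The counts of a cell in member rows followed its depth loosely (Pearson r = 0.386, Spearman rho = 0.377, over 72 cells that share 1 sort and 1 table), and the spread of the share between cells was 1.44 times the binomial variance. For the share of all promoter rows this ratio was 13.6, for cytosolic ribosomal proteins 2.21 and for oxidative phosphorylation genes 1.44. At equal relative spread this ratio rises with the counts of a set, and all promoter rows held 74614 counts beside 447 in members. Sets of unlike size can therefore not be ranked by it. At about 6 counts in 96 rows, no single cell shows which of these promoters were accessible in it.

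**Figure D4:**
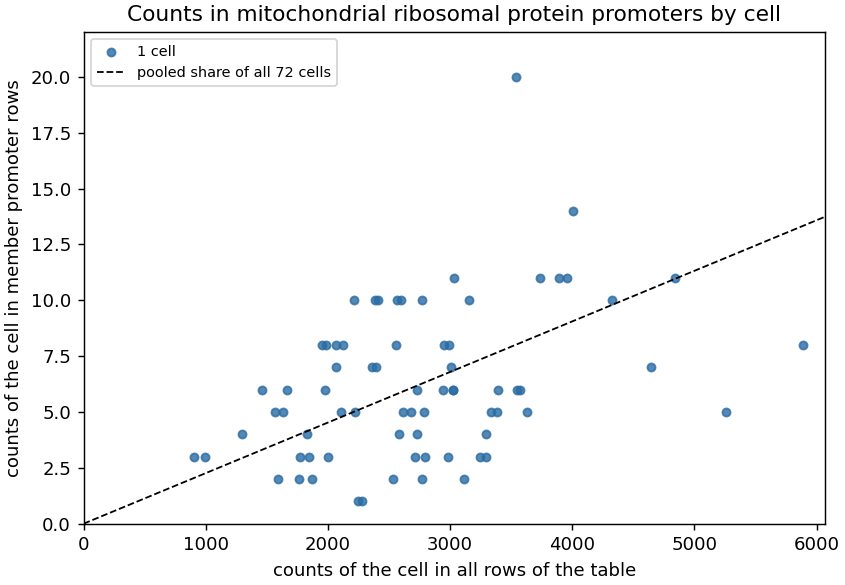
Counts in member promoter rows (y axis) against counts in all rows of the table (x axis) for each of the 72 cells, with the pooled share of 0.226% as a dashed line. The points scatter around the line, and the highest has 20 member counts and the lowest cells have 1.

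Promoters were then searched for short words from 250 bp before to 50 bp after the TSS of the canonical transcript, on both strands. The DRE (TATCGATA) occurred in 15 of 73 members (20.5%, 12.9 to 31.2), in 8.88% of 13872 other promoters and in 15.2% of other head-to-head promoters. The last share lies within the members' interval, and head-to-head members held the DRE in 12 of 58 (20.7%, 12.3 to 32.8). The 16 DRE words of members were centred at a median of -5.5 bp from the annotated TSS, beside -41.0 bp elsewhere. Annotated starts were not taken as exact to the base. Within the 100 bp before the TSS lay 68.8% of DRE words in members (44.4 to 85.8) and 66.6% in other promoters. The Motif 1 core (GTCACACT) occurred in 8 members (11.0%, 5.66 to 20.2), in 6.43% of other promoters and in 10.5% of other head-to-head promoters, which lies within the members' interval. Members and other promoters held the E-box CACGTG in 6.85% (5 members) and 4.25%, TATAAA in 46.6% (34) and 45.3%, GAGAGAG in 1.37% (1) and 6.22%, and the ETS core CCGGAAG in 0% (Wilson interval up to 5.00%) and 1.09%. In pooled counts per kb, rows of members with a DRE stood at 5.31 and those without at 7.54 (ratio 0.704, 0.542 to 0.904), while rows of members with the Motif 1 core stood at 9.23 and those without at 6.68 (ratio 1.38, 1.08 to 1.76). Each gene entered with all its rows. The 11 rows of members with the Motif 1 core include those of mRpS16, mRpS21 and mRpL55, and 84 counts in all. Of these counts, 16 lie in the mRpL55 row near a start of cdi, which holds no TSS of mRpL55. The rows of members with a DRE include a row of 2460 bp at mRpL10 with 6 counts. How far either ratio rests on such rows was not tested.

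A further word, CAGCTG, was added after the sequences had been read, so its share in members describes the promoters from which it was picked. It belongs to the E-box family of hexamers that basic helix-loop-helix proteins bind, and in longer form it is a known element of fly core promoters. CAGCTG occurred in 40 of 73 members (54.8%, 43.4 to 65.7), beside 17.7% of other promoters and 21.8% of other head-to-head promoters (4994 promoters). Members with and without a head-to-head neighbour had it in 31 of 58 and 9 of 15, and the large and the small subunit in 27 of 47 and 13 of 26. The extended word AACAGCTG occurred in 27 members (37.0%) and in 7.43% of other promoters. The other lists did not enter the choice of the word. The list of mitochondrial translation and transcription, synthetases included, held CAGCTG in 17 of 32 promoters (53.1%, 36.4 to 69.1). Oxidative phosphorylation genes held it in 22 of 84 (26.2%, 18.0 to 36.5). Cytosolic ribosomal proteins held it in 9 of 93 (9.68%, 5.18 to 17.4) and proteasome genes in 2 of 48 (4.17%, 1.15 to 13.98). DRE showed another order, with 30.1% of cytosolic ribosomal protein promoters and 9.52% of oxidative phosphorylation promoters. Of the members, 5 held both words, 35 held CAGCTG without a DRE, 10 a DRE without CAGCTG and 23 neither. In the same order, the 13872 other promoters gave 262, 2194, 970 and 10446. Whether the 2 words go together or apart was not tested.

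The 45 CAGCTG words of the 40 members were centred close to the annotated start, at a median of 5.0 bp after the TSS (quartiles -31.0 and 19.0). For the 2772 words of other promoters the median was -51.0 bp (quartiles -137.0 and -3.0). Annotated starts were not taken as exact to the base, so all positions here are approximate. The stretches below show the word in capitals with 10 bases on either side, on the strand of the gene, for members named above with many counts (mRpL2, mRpL33, mRpS21, mRpL11) and with few (mRpL40, mRpS18B, mRpS35, mRpL24).
mRpL2, chr3L:11120847-11120872, + strand: cgccgcgtaaCAGCTGttttcagccg
mRpL33, chrX:4322209-4322234, - strand: taggcgcagtCAGCTGttcttcgttc
mRpS21, chr3R:13381792-13381817, - strand: tgatattcatCAGCTGtttagcagta
mRpL11, chr3R:14511823-14511848, + strand: gcaataccatCAGCTGttgctgcttc
mRpL40, chr3R:11407931-11407956, + strand: gcaacaaaaaCAGCTGttcgtacatt
mRpS18B, chr2L:20097218-20097243, - strand: tatcggaaaaCAGCTGatccgccggc
mRpS35, chr3L:2780877-2780902, + strand: tttctgtaaaCAGCTGattgcttgct
mRpL24, chr2L:4945326-4945351, - strand: cagttctcaaCAGCTGattgcaagcc
The centres of these printed words lay between 9 bp before and 26 bp after the TSS, and mRpL24 held another copy centred at -234 bp. In 5 of these 8 genes the word is followed by tt, and in the other 3 by at. Among the sites not printed, tt follows the word at mRpL23, with 0 counts, and cc at mRpL55, with 22 counts. A link between these letters and counts was not tested. Member rows with and without the word did not differ beyond counting error in pooled counts per kb, at 7.086 (54 rows) and 6.999 (42 rows), a ratio of 1.01 (0.837 to 1.23).

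**Figure D5:**
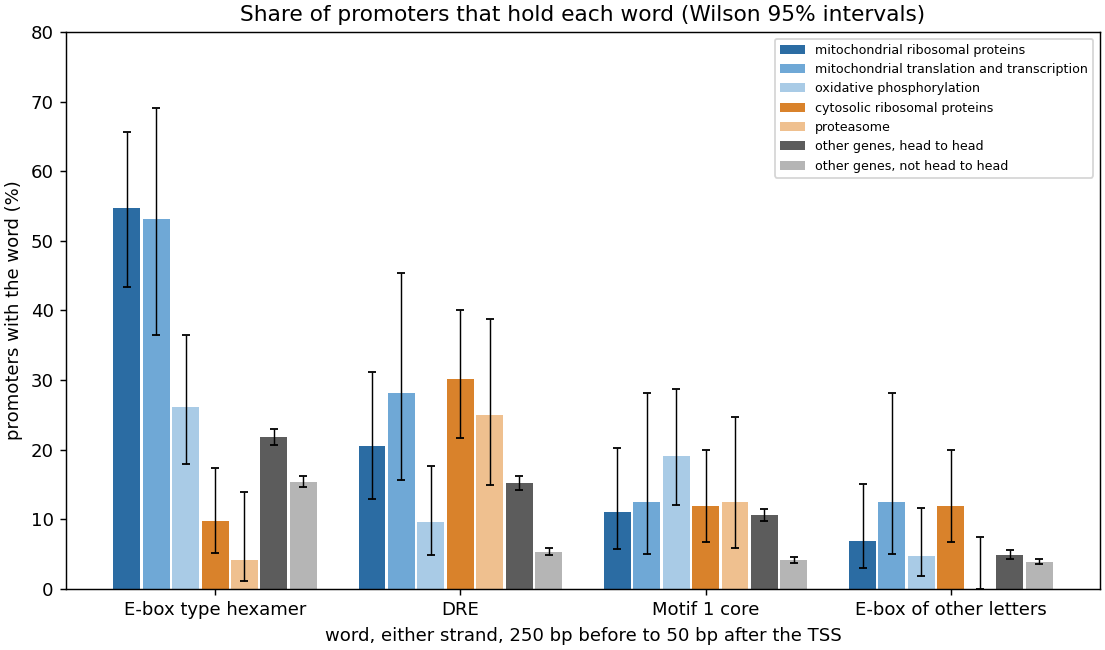
Share of promoters (y axis, percent, Wilson 95% intervals) that hold each of 4 words on either strand from 250 bp before to 50 bp after the TSS, for mitochondrial ribosomal protein genes, 4 related lists and other genes with and without a head-to-head neighbour. The E-box type hexamer stands at 54.8% and 53.1% in the lists of mitochondrial ribosomal proteins and of mitochondrial translation and transcription, and at 9.68% in cytosolic ribosomal proteins, where the DRE stands at 30.1%.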

How the data were processed

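Single-cell ATAC-seq libraries of sens-GFP+ cells were processed by the authors, who trimmed adapters, mapped reads to the FlyBase release 6 genome, removed duplicates with Picard and kept cells by hand from plots of aggregated reads. If those plots were centred on TSS, promoter-rich cells were favoured, which was not tested. The submitters' processing notes name FastQC 0.1, Bowtie2 2.2.5, SAMtools 1.2, Picard and build dm6. The authors deposited whole-number counts per region and cell, without normalization, for 72 of 384 cells, and 0 columns were left unused. The counting tool, the handling of strand and fragments, and any transposase shift are not given in the sources used here.

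Counts were summed over cells and divided by row length in Python 3.11.15 with NumPy 2.4.6, SciPy 1.17.1, pandas 2.3.3 and matplotlib 3.10.9. TSS came from all transcripts of the Ensembl annotation of the same assembly (a gene's canonical transcript for words), and every row end lay within its chromosome arm in the RefSeq genome from which sequences were read. A row near several starts entered each of its genes and was counted 1 time in each set. Intervals are exact 95% Poisson, exact conditional for ratios, and Wilson for shares; their width reflects counting alone, and reads amplified by PCR without molecular identifiers are not independent molecules. In the 11 member rows holding 10 counts or more, the median ratio of variance to mean across cells was 1.17. The interval code was tested on simulated data. No p-value was computed, since all cells form 1 group and 1 sample.

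Genes were named by a rule: the 10 members with most and the 10 with fewest counts per kb, the 10 shared promoters with most counts, tko and bonsai, and mRpL3, mRpL10, mRpL11, mRpL12, mRpL44, mRpL45, mRpS2, mRpS5, mRpS29, mRpS30, mRpS18A, mRpS18B and mRpS18C. The other genes named were chosen after their values were seen. Members and lists were chosen with earlier results of these data known. A TCT-type initiator, searched at the annotated start, matched 0 of 93 cytosolic ribosomal protein genes, which are known for it, so annotated starts were not taken as exact to the base and it is not reported further.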

Additional observations from a re-analysis of the deposited data

How the results depend on the processing

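Of 64 recomputed values, 48 stayed within the interval of the reported value, 15 moved outside it and 1 reversed. No paired analysis was possible because all cells belong to 1 group. The ratio of members to other promoter rows in counts per kb (1.47) reversed to 0.679 with member rows near no other protein-coding TSS alone. The background was left at all other promoter rows there, and against other single rows the value was 0.74 (0.553 to 0.971). The ratio of 1.47 fell to 1.28 against rows of similar length. It fell to 1.02 per row, to 1.09 in shared rows and to 1.07 against rows of the same class. With length matched too it was 1.06, and these last 4 were chosen after seeing the data. It rose to 1.61 with starts of any annotated gene as background, and the other 9 settings gave 1.40 to 1.56. The cause was not tested, beyond what each setting changes by construction. Member counts per kb (7.04) moved to 6.12 with each row counted at most 1 time per cell, to 7.97 with rows of 200 to 2000 bp and to 3.26 with rows near no other start. Detection of member rows (87.5%) moved to 93.0% with a window of 100 bp and to 94.4% with rows of 200 to 2000 bp. Shared over single (2.55) moved to 1.60 with rows of 200 to 2000 bp, and large over small subunit (0.899) to 0.725 (0.612 to 0.861) with a window of 1000 bp. With 100 bp it was 0.783 (0.638 to 0.964), so both windows gave intervals below 1. From 100 bp before to 50 bp after the TSS, TATAAA was found in 19.2% of members and 23.8% of other promoters, and GAGAGAG in 0% and 3.47%. The spread between cells ranged from 1.34 to 1.62 times the binomial variance, and CAGCTG and DRE kept 52.1% and 20.5%.

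With a median of 3.0 counts per member row, single rows and genes cannot be put in a rank order, also not within the leading or the last few.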

Other observations

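All 2080 hexamers, read on both strands, were counted from 100 bp before to 50 bp after the TSS, in the 73 members and in 4994 other head-to-head promoters. CAGCTG had the largest difference between the shares of the hexamers counted, with 52.1% of members and 15.7% of the others. The next were ACAGCT and AACAGC, which overlap it, with 45.2% of members each and 16.6% and 17.2% of the others, and AGCTGA with 38.4% and 13.7%. TATCGA, part of the DRE, came eighth with 46.6% and 30.1%. The hexamer GGCAAC, added after the sequences were read, occurred in 20 members (27.4%) and 17.7% of other promoters from 250 bp before to 50 bp after the TSS. The ranking was made on the promoters it describes and has no other set of members to be checked on.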
